A study of Homo sapiens with 8 samples.

Results

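The integrated stress response was followed here through 31 genes, chosen by symbol: the eIF2 kinases and the kinase substrate EIF2S1, the transcription factor ATF4, DDIT3, and genes known as ATF4 targets, including enzymes of serine, one-carbon and proline synthesis. All 31 symbols matched 1 row each among the 60230 genes of the count table. Of the 31 genes, 30 passed the filter on low counts and were tested in a fit to 13404 genes in all. CHAC1 did not pass.

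HepG2 is an established human liver cancer line, and the derivative used here overexpresses CYP3A4, a cytochrome P450 enzyme of drug metabolism, under blasticidin selection in all groups. The cells were exposed for 24 h to 0.2% DMSO as the control, or to compound 4, compound 5 or compound 6, each at its own IC50. Compounds 4 and 6 are bisphenols with a methylene bridge that carry a tert-butyl group (compound 4, labelled metylcresol) or a cyclohexyl group (compound 6, labelled cyclohexil) beside a methyl group on each ring. Compound 5 (labelled tetrabut) has an ethane-type bridge and a pair of tert-butyl groups on each ring. By the study's account the IC50s of these 3 compounds lay close together in the micromolar range. As the doses were set by IC50 and not by equal molarity, differences between compounds are differences between the treatments as applied. Each of the 4 groups had 2 samples, which the labels number as day 1 and day 2. The labels give the day as a time, while the methods state a single exposure of 24 h, so the day was taken here as the replicate number, and what it marks is not stated. No source used here states that they were separate cultures, so the p-values measure the spread between these samples, which may be technical. The columns of replicate 1 of compounds 4 and 5 are named as merged, and no source used here says what was merged.

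When eIF2 alpha, encoded by EIF2S1, is phosphorylated by one of its kinases, general protein synthesis slows while the mRNA of ATF4 is translated more. ATF4 then activates genes of amino acid uptake and synthesis, tRNA charging and redox balance, together with the factor DDIT3 (CHOP) and the feedback gene PPP1R15A (GADD34), whose product promotes dephosphorylation of eIF2 alpha. The 4 kinases respond to different signals: EIF2AK3 (PERK) to unfolded protein in the endoplasmic reticulum (ER), EIF2AK4 (GCN2) to amino acid shortage, EIF2AK1 (HRI) to haem shortage and mitochondrial stress, and EIF2AK2 (PKR) to double-stranded RNA. Phosphorylation and translation are not measured by RNA sequencing, and only mRNA levels are described here.

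The counts of the 8 libraries summed to between 9472261 and 13308975 per library, and 3 counts, taken as the lowest amount detectable, corresponded to 0.225 to 0.317 CPM (counts per 1 M counts of the library, here before scaling). All other CPM values are scaled by TMM, which adjusts library sizes so that most genes are level. CYP3A4 was detected in all libraries, at 198 and 206 CPM in the DMSO libraries, 287 and 216 for compound 4, 371 and 421 for compound 5 and 170.5 in both replicates of compound 6. It was higher with compound 5 than with DMSO, by 0.97 ± 0.14 (log2, SE, adjusted p = 0.000724, edgeR). All 8 hepatocyte and HepG2 markers checked were detected in every library, with a summed level of 34100 to 35600 CPM in the DMSO libraries, 27000 to 27400 for compound 4, 28400 to 29100 for compound 5 and 28000 to 33700 for compound 6. This sum, most of which was ALB and APOB, lay below both DMSO libraries in all 6 treated libraries, but its markers did not move together. AFP was called lower with compounds 4 and 5 and APOA1 with all 3 compounds, whereas TTR was called higher with compound 4 (126 and 148.6 CPM, against 99.3 and 74.6 with DMSO) and APOB with compound 6 lay above DMSO without a call. Of the leukocyte markers, PTPRC and CD3E were at 0 in all libraries, and the endothelial markers summed to at most 2.06 CPM. CD68, which also marks lysosomes, was at 27.2 to 57.6 CPM and PDGFRB at 1.64 to 8.55 CPM, both called higher with compound 4 (adjusted p = 0.0079 and 0.00864), while the fibroblast collagens COL1A1 and COL3A1 reached at most 0.104 CPM. The part of these marker levels in the results was not tested. In bulk samples, fewer cells of a type and less RNA per cell cannot be told apart.

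Members were called higher than with DMSO for each of the 3 compounds, most of them with compound 5, and none was called lower. Fold changes below are log2 values with their standard errors, and a call means an adjusted p under 0.05 (Benjamini-Hochberg) in edgeR's quasi-likelihood test across all 13404 genes. With compound 5, 18 of the 30 tested members were higher and 0 lower, where 28.1% of all genes tested were called, 13.9% higher and 14.2% lower. The median log2 fold change of the members was 0.71, against -0.03 for all genes. With compound 6, 14 members were higher and 0 lower, where 4.4% of all genes were called, 2.8% higher and 1.6% lower, and the median was 0.52 against 0.00. With compound 4, 7 members were higher and 0 lower, where 11.9% of all genes were called, 6.5% higher and 5.42% lower, and the median was 0.29 against 0.00. The libraries of the compound and of DMSO did not overlap for 25 members (compound 4), 25 (compound 5) and 23 (compound 6), where this held for 54.6%, 70.1% and 52.9% of all genes. The 3 comparisons share the same DMSO libraries and are therefore not independent of each other.

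The calls depended on the control libraries to different degrees. With compound 5, 15 to 16 members were called when any 1 library was left out, while the number of genes called over the whole table fell from 3763 to between 1680 and 2139. With compound 4, the 7 calls fell to 3 without DMSO replicate 1 and to 2 without DMSO replicate 2, the latter being NUPR1 and ASNS. The calls over the whole table then fell from 1598 to 663 and 335. With compound 6, the 14 calls fell to 3 without DMSO replicate 1, to 0 without DMSO replicate 2 and to 1 without replicate 2 of compound 6, and rose to 16 without its replicate 1. Without DMSO replicate 2, the number of genes called over the whole table with compound 6 fell from 590 to 1. The direction of all called members was kept in each of these fits.

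The 4 stretches of 30 bases below, taken from the promoter windows of members, show the sites at which the search for known response elements found a match. A CARE, the element bound by dimers of ATF4 and C/EBP factors, was searched on both strands as TGATGNAA, a cyclic AMP response element (CRE) as TGACGTCA and an ER stress element (ERSE) by its consensus. The windows are RefSeq promoters on GRCh38.p14, from 250 bases before to 50 bases after each gene start, and 23 of the 31 members had one. The strand given is that of the gene, the sequences run 5′ to 3′ on it, and the capitals mark the match.
ASNS, chr7:97872458-97872487, minus strand, 68 bases before the start: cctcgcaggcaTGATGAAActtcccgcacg
CHAC1, chr15:40953251-40953280, plus strand, 209 bases before the start, match on the opposite strand: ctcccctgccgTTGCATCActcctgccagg
CEBPG, chr19:33374060-33374089, plus strand, 42 bases before the start: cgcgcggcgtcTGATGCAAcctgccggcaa
PPP1R15A, chr19:48872352-48872381, plus strand, 58 bases before the start, CRE: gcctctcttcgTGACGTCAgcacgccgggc

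By the GENCODE 29 annotation, the ASNS and CHAC1 sites lie in an exon of a transcript of the same gene with an earlier start (the ASNS site also within AC079781.5), the CEBPG site lies within the gene but in no exon, and the PPP1R15A site lies in no annotated gene. The 8-base CARE was found in the windows of 3 of the 23 members (13%) and of 4.46% of the 27305 genes with a window. The CRE was found in 1 of 23 members (4.35%) and in 2.25% of all genes, and the ERSE in 0 of 23 members and in 0.0916% of all genes. A match is a description of the letters and not evidence of binding. Of these 4 genes, ASNS and CEBPG were called higher with each compound, PPP1R15A with compounds 4 and 5, and CHAC1 was too low to test.

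**Figure D1:**
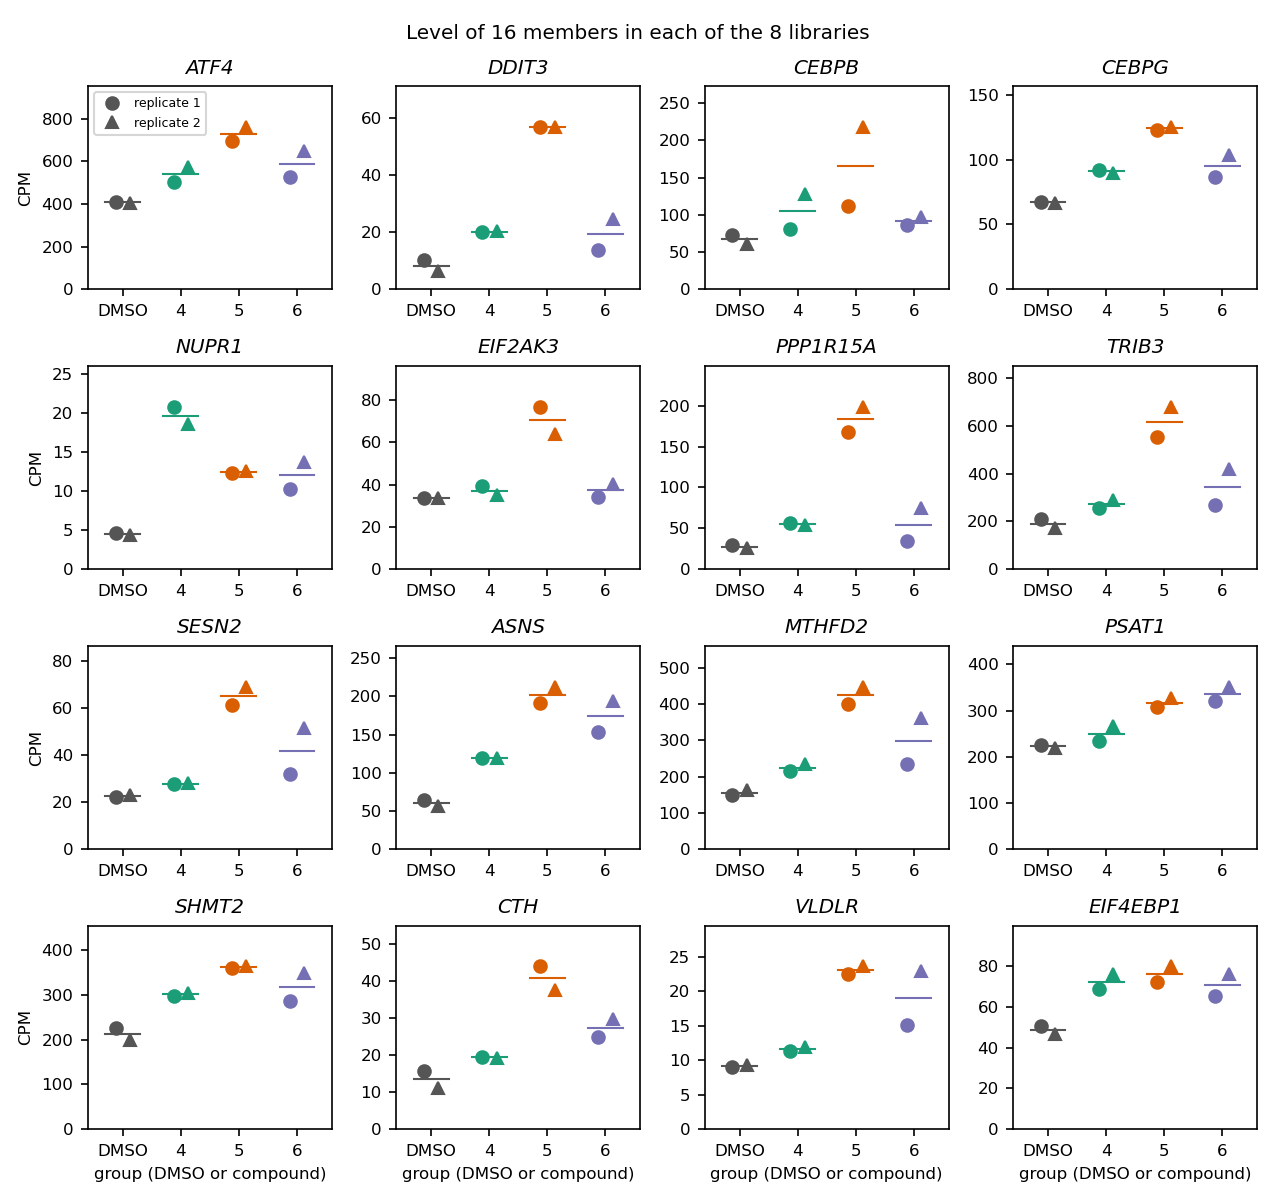
Level in CPM (y axis, linear, from 0) of 16 members in each library, by group (x axis), with replicate 1 as circles, replicate 2 as triangles and the group mean as a line. DDIT3, PPP1R15A and EIF2AK3 stand apart with compound 5, NUPR1 is highest with compound 4, and the replicates of compound 6 lie apart for TRIB3, SESN2 and MTHFD2.

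Among the kinases, EIF2AK3, the ER-resident kinase PERK, rose with compound 5 only among the comparisons made with DMSO. Its level was 33.7 and 33.8 CPM in the DMSO replicates and 76.8 and 63.7 CPM with compound 5, a log2 fold change of 1.06 ± 0.13 (adjusted p = 0.000429). With compound 4 it was at 39.3 and 35.0 CPM and with compound 6 at 34.2 and 40.2 CPM, and neither difference from DMSO was called (adjusted p = 0.558 and 0.61). Compound 5 was also above compound 4 by 0.92 ± 0.13 (adjusted p = 0.00543) and above compound 6 by 0.91 ± 0.13 (adjusted p = 0.00424), and neither difference was called without replicate 1 of compound 5 (0.80 and 0.78). The other 3 kinases and EIF2S1 were called with no compound, and their log2 fold changes lay between -0.24 (EIF2AK2, compound 4) and 0.08 (EIF2S1, compound 5).

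ATF4 (chr22:39519695-39522685 in GENCODE 29 on GRCh38), the central transcription factor of the response, rose with compounds 5 and 6. It was at 407 CPM in both DMSO libraries, 697 and 762 for compound 5, 525 and 648 for compound 6 and 505 and 574 for compound 4. All 6 treated libraries lay above both DMSO libraries. The log2 fold change was 0.84 ± 0.12 with compound 5 (adjusted p = 0.000891) and 0.53 ± 0.12 with compound 6 (adjusted p = 0.0381). As given above, calls with compound 6 depended on single libraries. With 1 library left out, the log2 fold change of ATF4 with compound 6 lay between 0.38 and 0.70. With compound 4 it was 0.41 ± 0.12 and missed the cutoff (adjusted p = 0.0538), whereas the fit with the replicate number as a block called it (adjusted p = 0.04), as did DESeq2 (adjusted p = 0.0142). Of the 31-base stretches of ATF4 transcripts, 29.7% also occur in other genes, chiefly the pseudogene ATF4P4, which had 0 counts in all libraries.

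DDIT3 (chr12:57516588-57521737) encodes CHOP, a C/EBP family factor linked to cell death under lasting stress. With compound 5 it showed the largest rise of the members, close to that of PPP1R15A (2.73 ± 0.27). The level of DDIT3 was 10.3 and 6.25 CPM in the DMSO libraries, 19.9 and 20.4 for compound 4, 56.7 and 56.9 for compound 5 and 13.9 and 24.6 for compound 6. The groups did not overlap with DMSO, although the DMSO replicates themselves differed and the compound 6 replicates lay far apart. The log2 fold change was 2.79 ± 0.26 with compound 5 (adjusted p = 0.000109), a 6.92-fold difference. It was 1.30 ± 0.27 with compound 4 (adjusted p = 0.0118; 0.96 and not called without DMSO replicate 2). With compound 6 it was 1.24 ± 0.27 (adjusted p = 0.0318), and it was not called with the replicate block (adjusted p = 0.0507) and was 0.77 without replicate 2 of compound 6. CEBPG, a C/EBP partner of ATF4 whose promoter window held the CARE printed above, was at 67.6 and 66.4 CPM in the DMSO libraries, 91.8 and 89.9 for compound 4, 123 and 125 for compound 5 and 86.6 and 103 for compound 6. It rose by 0.44 ± 0.11, 0.89 ± 0.11 and 0.50 ± 0.11 with compounds 4, 5 and 6 (adjusted p = 0.0269, 0.000407 and 0.0321). All treated libraries of CEBPG were above both DMSO libraries.

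CEBPB, another C/EBP factor of the liver and of the stress response, varied widely between replicates. It was at 72.4 and 61.4 CPM in the DMSO libraries, 80.5 and 129 for compound 4, 112 and 218 for compound 5 and 86.4 and 97.2 for compound 6. In each treated group replicate 2 was the higher library. It was called with compound 5 (1.31 ± 0.28, adjusted p = 0.00702), but was 0.74 and not called without replicate 2 of compound 5 (adjusted p = 0.06), and was not called without DMSO replicate 2 (adjusted p = 0.0572). With compound 4 the value was 0.65 (adjusted p = 0.168), and it was 0.94 and called without replicate 1 of compound 4 (adjusted p = 0.0433) and 0.28 without its replicate 2. With compound 6 it was 0.46 (adjusted p = 0.404).

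NUPR1, a small stress-induced chromatin cofactor, was the member with the largest change with compound 4. It was at 4.63 and 4.44 CPM in the DMSO libraries, 20.9 and 18.6 for compound 4, 12.3 and 12.6 for compound 5 and 10.3 and 13.8 for compound 6. The 2 libraries of compound 4 were above all others, and all treated libraries were above both DMSO libraries. The log2 fold change was 2.12 ± 0.18 with compound 4 (4.34-fold, adjusted p = 0.000291), 1.45 ± 0.19 with compound 5 (adjusted p = 0.000504) and 1.42 ± 0.19 with compound 6 (adjusted p = 0.00465). ATF5, an ATF4-related factor of the mitochondrial stress response, was at 20.1 to 32.1 CPM over the 8 libraries and was called with no compound.

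Of the 5 feedback and mTORC1 regulators, 4 rose with compound 5, 3 with compound 6 and 2 with compound 4. The shares of all genes called higher were 13.9%, 2.8% and 6.5%. PPP1R15A was at 29.6 and 25.9 CPM in the DMSO libraries, 56.4 and 53.6 for compound 4, 168 and 199 for compound 5 and 34.7 and 74.3 for compound 6. Compound 5 was above every other library, and the 2 libraries of compound 6 enclosed those of compound 4. The log2 fold change was 2.73 ± 0.27 with compound 5 (6.62-fold, adjusted p = 0.000152) and 0.99 ± 0.27 with compound 4 (adjusted p = 0.0382, but 0.0804 in DESeq2, and not called when any 1 library of compound 4 or DMSO was left out). With compound 6 the value was 0.98 ± 0.27 and was not called (adjusted p = 0.0672). It was 0.33 without replicate 2 of compound 6, and 1.45 and called without its replicate 1 (adjusted p = 0.00112). TRIB3, a pseudokinase that restrains ATF4 and AKT signalling, was at 209 and 173 CPM in the DMSO libraries, 256 and 292 for compound 4, 554 and 681 for compound 5 and 271 and 421 for compound 6. It rose by 1.69 ± 0.20 with compound 5 (adjusted p = 0.000291) and by 0.86 ± 0.19 with compound 6 (adjusted p = 0.0342; 0.51 and not called without replicate 2 of compound 6). With compound 4 it was at 0.52 ± 0.19 and was not called (adjusted p = 0.108). DESeq2 called TRIB3 with compound 4 (adjusted p = 0.0335), as did a fit to the 2 groups alone (adjusted p = 0.0442).

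SESN2 (sestrin 2), a leucine sensor that inhibits mTORC1, was at 22.2 and 22.9 CPM in the DMSO libraries, 27.6 and 28.2 for compound 4, 61.2 and 69.2 for compound 5 and 32.1 and 51.7 for compound 6. It rose by 1.53 ± 0.19 with compound 5 (adjusted p = 0.000396) and by 0.90 ± 0.19 with compound 6 (adjusted p = 0.0287; 0.52 and not called without replicate 2 of compound 6). Its value with compound 4 was 0.30 ± 0.19 (adjusted p = 0.353). EIF4EBP1, the inhibitor of cap-dependent translation that mTORC1 switches off, rose with each compound, and no difference between compounds was called. It was at 50.5 and 46.5 CPM in the DMSO libraries, 68.6 and 76.1 for compound 4, 72.1 and 79.8 for compound 5 and 65.5 and 76.3 for compound 6. The log2 fold changes were 0.58, 0.65 and 0.55, each ± 0.12 (adjusted p = 0.0119, 0.00329 and 0.0321). DDIT4 (REDD1), an mTORC1 inhibitor, was below DMSO with compound 4 and above it with compound 5 without a call. It was at 168 and 167 CPM in the DMSO libraries, 107 and 130.2 for compound 4, 212 and 247 for compound 5 and 140.3 and 198 for compound 6. Neither the value of -0.49 ± 0.16 with compound 4 (adjusted p = 0.0723) nor that of 0.46 ± 0.16 with compound 5 (adjusted p = 0.0538) was called. Both were called with the replicate block (adjusted p = 0.0322 and 0.0271) and in DESeq2 (adjusted p = 0.0221 and 0.0133).

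Of the 6 enzymes of serine and one-carbon metabolism, 4 rose with compound 5, 3 with compound 6 and 1 with compound 4. Of all genes, 13.9%, 2.8% and 6.5% were called higher with these compounds. Of the 3 enzymes that make serine from a glycolytic intermediate, PSAT1 alone was called. PHGDH, the first enzyme, was called with no compound against DMSO (-0.33, 0.28 and 0.14 with compounds 4, 5 and 6, although a fit to the 2 groups alone called it with compound 5 at an adjusted p of 0.0276), nor was PSPH, the last (0.04, -0.09 and -0.05). PSAT1, the middle enzyme, was at 226 and 219 CPM in the DMSO libraries, 234 and 266 for compound 4, 307 and 327 for compound 5 and 320.3 and 352 for compound 6. It rose by 0.51 ± 0.11 with compound 5 (adjusted p = 0.00574; not called without replicate 2 of compound 5) and by 0.60 ± 0.11 with compound 6 (adjusted p = 0.0147). The call with compound 6 also depended on single libraries (0.53 to 0.69 with 1 left out). With compound 4 PSAT1 was at 0.17 ± 0.11 (adjusted p = 0.353).

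SHMT2, which passes the carbon of serine to folate in mitochondria, was at 227 and 198 CPM in the DMSO libraries, 298 and 304 for compound 4, 359.9 and 364 for compound 5 and 286 and 349.7 for compound 6. It rose by 0.50, 0.77 and 0.58, each ± 0.12, with compounds 4, 5 and 6 (adjusted p = 0.0205, 0.00124 and 0.0249). MTHFD2, the next mitochondrial folate enzyme, was at 149 and 163 CPM in the DMSO libraries, 215 and 234 for compound 4, 399.5 and 449 for compound 5 and 234 and 361 for compound 6. All treated libraries were above both DMSO libraries. The log2 fold change was 1.44 ± 0.17 with compound 5 (adjusted p = 0.000359), and 0.93 ± 0.17 with compound 6 (adjusted p = 0.0166; 0.59 and not called without replicate 2 of compound 6). With compound 4 it was 0.52 ± 0.17 (adjusted p = 0.0745, called with the replicate block at 0.0383 and in DESeq2 at 0.0184). ALDH1L2, a mitochondrial enzyme that oxidises formyl-folate and yields NADPH, was at 40.3 and 45.1 CPM in the DMSO libraries, 66.7 and 37.4 for compound 4, 97.9 and 73.6 for compound 5 and 74.2 and 81.4 for compound 6. It rose with compound 5 (1.00 ± 0.23, adjusted p = 0.00905; not called without DMSO replicate 1 or replicate 1 of compound 5). With compound 4 it was at 0.28 (adjusted p = 0.478), and between -0.19 and 0.66 with 1 library left out. With compound 6 it was at 0.86 ± 0.23, not called in edgeR (adjusted p = 0.061) and called in DESeq2 (adjusted p = 0.00322). ALDH1L2 is among the genes whose longest annotated transcript is long (5177 bases or more). Their median difference of replicate 2 from replicate 1 was -0.22 with compound 4 on the log2 scale. For genes whose longest annotated transcript is short (2177 bases or less) it was 0.17. Between compound 5 and DMSO, the median log2 fold change was 0.11 for long and -0.16 for short transcripts. By this measure NUPR1, VLDLR, STC2, EIF2AK2 and EIF2AK4 are also among the long ones. DDIT3, EIF4EBP1, DDIT4, ATF4, CEBPB, CTH, ATF5 and PYCR1 are among the short ones. Which transcript of each gene was expressed was not tested, nor was the part of these differences in the values of these members and of ALDH1L2.

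ASNS (chr7:97852118-97872542), asparagine synthetase, which held the CARE printed above, rose with all 3 compounds by more than the spread between replicates. It was at 63.8 and 56.8 CPM in the DMSO libraries, 119 in both replicates of compound 4, 191 and 213 for compound 5 and 153 and 194 for compound 6. The log2 fold changes were 0.98, 1.75 and 1.53, each ± 0.13, with compounds 4, 5 and 6 (adjusted p = 0.00159, 5.75e-05 and 0.00151). With compound 6, it was the 1 member still called without replicate 2 of compound 6 (1.36, adjusted p = 0.0125). Of its 31-base stretches, 42.5% also occur in other genes, mostly the overlapping AC079781.5, which was at 6.08 to 19.1 CPM. With the counts of both summed, a check chosen after the values were seen, the changes were 0.88, 1.64 and 1.46 and were called with each compound. The other 3 enzymes of this group, GPT2 (alanine), PYCR1 and ALDH18A1 (both proline synthesis), were called with no compound, except that GPT2 was called with compound 5 in DESeq2 (adjusted p = 0.0402) and in a fit to the 2 groups alone (adjusted p = 0.0449). Their log2 fold changes lay between -0.32 (ALDH18A1, compound 4) and 0.23 (GPT2, compound 5).

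The 2 transsulfuration enzymes, which make cysteine from homocysteine, rose with compounds 5 and 6. CTH, the second enzyme, was at 15.8 and 11.2 CPM in the DMSO libraries, 19.5 and 19.3 for compound 4, 44.0 and 37.5 for compound 5 and 24.8 and 29.8 for compound 6. It rose by 1.60 ± 0.18 with compound 5 (adjusted p = 0.000227) and by 1.03 ± 0.18 with compound 6 (adjusted p = 0.0127), and was at 0.54 ± 0.18 with compound 4 (adjusted p = 0.0801). CBS, the first enzyme, was at 47.5 and 47.8 CPM in the DMSO libraries, 47.8 and 48.8 for compound 4, 64.9 and 62.4 for compound 5 and 61.6 and 75.9 for compound 6. It rose by 0.53 ± 0.12 with compound 6 (adjusted p = 0.0338) and by 0.42 ± 0.12 with compound 5 (adjusted p = 0.0242). The latter was not called under upper-quartile or library-size scaling or without any 1 library of the groups compared. The call with compound 6 also depended on single libraries (0.38 to 0.70 with 1 left out). Of the 31-base stretches of CBS, 56.3% are shared, chiefly with its near-identical copy CBSL, so its counts are uncertain. CBSL itself had at most 13 counts per library, and the sum of both was called as CBS was (0.42 and 0.53). CHAC1, an ATF4 target that degrades glutathione, had 0 counts in 7 libraries and 2 counts (0.165 CPM) in replicate 2 of compound 6. A level below 3 counts was not detectable at this depth.

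VLDLR, the receptor for very-low-density lipoprotein, was at 8.96 and 9.37 CPM in the DMSO libraries, 11.4 and 11.9 for compound 4, 22.6 and 23.6 for compound 5 and 15.1 and 23.0 for compound 6. It rose by 1.33 ± 0.19 with compound 5 (adjusted p = 0.000818) and by 1.06 ± 0.19 with compound 6 (adjusted p = 0.0155), and was at 0.34 ± 0.20 with compound 4 (adjusted p = 0.307). The secreted hormone STC2 was called with no compound in edgeR, with 0.29, 0.35 and 0.41 for compounds 4, 5 and 6. DESeq2 called STC2 with compounds 5 and 6 (adjusted p = 0.0239 and 0.0409). With compound 6 STC2 was 0.59 and called without replicate 1 of compound 6 (adjusted p = 0.0229) and 0.24 without its replicate 2.

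**Figure D2:**
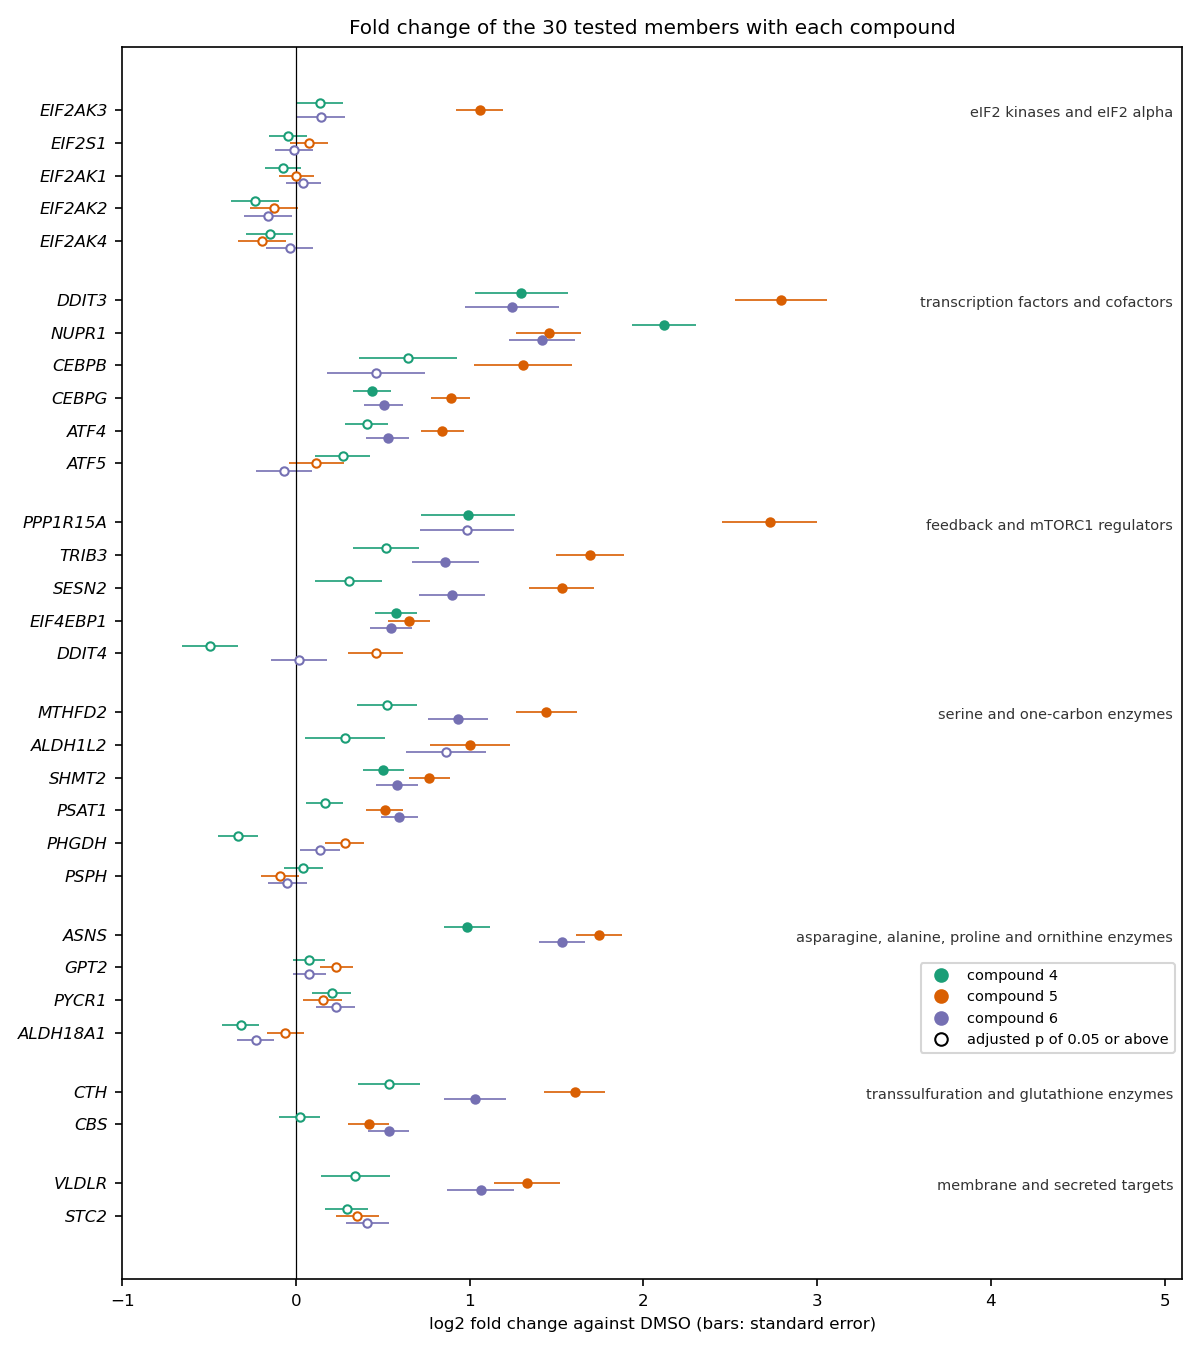
Log2 fold change against DMSO (x axis) of the 30 tested members, grouped by role, for compound 4 (green), compound 5 (orange) and compound 6 (purple), with the standard error as bars and open points where the adjusted p was 0.05 or above. Compound 5 has 18 filled points, compound 6 has 14 and compound 4 has 7, and none of these lies below 0.

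The replicates of compound 6 differed in how far the members were from DMSO. The median of the 30 members against the DMSO mean was 0.37 in replicate 1 and 0.64 in replicate 2 on the log2 scale. For compound 5 these medians were 0.66 and 0.75, and for compound 4 they were 0.28 and 0.32. With compound 6, 25 of the 30 members were higher in replicate 2, where 50.4% of all genes were. The corresponding counts were 22 with compound 5 (49.1% of all genes), 18 with compound 4 (51%) and 12 with DMSO (48.7%). Transcripts of the mitochondrial genome made up 5.58% and 6.21% of the counts in replicates 1 and 2 of compound 6. This share was 4.91% and 5.12% with DMSO, 5.46% and 5.31% with compound 4 and 6.15% and 5.87% with compound 5. Its part in the values of the members was not tested.

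The 3 pairs of compounds were then compared directly, each over all 13404 genes. Between compounds 5 and 4, which differ in the bridge and in the second alkyl group of each ring, 15 members were called, where 13.9% of all genes were. Of these, 14 were higher with compound 5, where 6.91% of all genes were, and 1, NUPR1, was higher with compound 4, where 7.04% of all genes were. The libraries of both compounds did not overlap for 23 members and for 60.1% of all genes. The differences were largest for PPP1R15A (1.74 ± 0.26, adjusted p = 0.00555), DDIT3 (1.49 ± 0.24, adjusted p = 0.00676), SESN2 (1.22 ± 0.18, adjusted p = 0.00588) and TRIB3 (1.17 ± 0.19, adjusted p = 0.00728). CTH (1.07), VLDLR (0.99), EIF2AK3 and MTHFD2 (each 0.92), ASNS (0.76) and CEBPG (0.45, adjusted p = 0.0256) were also called. DDIT4 (0.95 ± 0.16, adjusted p = 0.00806) and PHGDH (0.61 ± 0.11, adjusted p = 0.0106) differed between the compounds although neither was called against DMSO. They lay below it with compound 4 and above it with compound 5. ATF4 differed by 0.44 ± 0.12 (adjusted p = 0.0407), a call not kept under upper-quartile or library-size scaling, in a fit to the 2 groups alone, or without any 1 library. CBS was called at 0.40 ± 0.12 (adjusted p = 0.0484), and was not called with the replicate block (adjusted p = 0.0564), under upper-quartile or library-size scaling, in the fit to the 2 groups alone, or without any 1 library. NUPR1 went the other way by -0.67 ± 0.16 (adjusted p = 0.0257), but was not called in DESeq2 (adjusted p = 0.0882) or without any 1 library. The count of 15 fell to 4 without replicate 1 of compound 5, to 5 without its replicate 2, to 13 without replicate 1 of compound 4 and to 11 without its replicate 2. Over all genes, the 1869 calls fell to 111 and 167 without replicates 1 and 2 of compound 5, rose to 2709 without replicate 1 of compound 4 and fell to 579 without its replicate 2. PPP1R15A and SESN2 were the 2 members called in each of these 4 fits.

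Between compounds 5 and 6, 5 members were called, where 9.91% of all genes were. All 5 were higher with compound 5, as were 4.76% of all genes, while 5.16% were lower. They were EIF2AK3, DDIT3 (1.55 ± 0.24, adjusted p = 0.00509), PPP1R15A (1.74 ± 0.26, adjusted p = 0.00446), TRIB3 (0.83 ± 0.19, adjusted p = 0.0227; 0.55 and not called without replicate 1 of compound 6) and CEBPG. The libraries did not overlap for 16 members and for 58.8% of all genes. CEBPG was close to the cutoff (0.39 ± 0.11, adjusted p = 0.0496) and was not called with the replicate block (adjusted p = 0.0584), which called MTHFD2 and SESN2 instead (adjusted p = 0.0432 and 0.0377). No metabolic enzyme among the members was called in the edgeR fit to all samples without the block, although 2 were called under other settings. CTH differed by 0.57 ± 0.17 (95% interval 0.21 to 0.94, adjusted p = 0.053) and was called in 5 of 8 alternatives, among them DESeq2 (adjusted p = 0.046) and a fit to the 2 groups alone (adjusted p = 0.0231). MTHFD2 differed by 0.51 ± 0.17 (95% interval 0.13 to 0.89, adjusted p = 0.0825), and was called in DESeq2 (adjusted p = 0.015), without the filter on low counts, and, at 0.88, without replicate 2 of compound 6. Without replicate 1 of compound 6 it was 0.23 and not called (adjusted p = 0.395). For ASNS the interval of the difference was -0.07 to 0.50, for PSAT1 -0.32 to 0.15 and for SHMT2 -0.07 to 0.44 on the log2 scale. The count fell to 3 without either library of compound 5 or without replicate 1 of compound 6, and rose to 8 without replicate 2 of compound 6. Over all genes, the 1329 calls fell to 143 and 278 without replicates 1 and 2 of compound 5, to 211 without replicate 1 of compound 6 and to 1016 without its replicate 2. PPP1R15A and DDIT3 were called in each of these 4 fits.

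Between compounds 4 and 6, which carry a tert-butyl or a cyclohexyl group at the same place, 0 members were called in edgeR, where 0.0448% of all genes were called, 0.0224% in each direction. At an unadjusted p under 0.05, 11 members differed, and DESeq2 called 3 of the 30, ASNS, PHGDH and PSAT1, all lower with compound 4. The 95% intervals do not show that both treatments acted alike. NUPR1 was higher with compound 4 by 0.70 (interval 0.34 to 1.06, adjusted p = 0.229) and ASNS lower by -0.55 (interval -0.83 to -0.26, adjusted p = 0.231). For DDIT3 the interval was -0.49 to 0.60 and for ATF4 it was -0.39 to 0.15. ALDH1L2 differed by -0.58 (adjusted p = 0.462), and by -1.06 to -0.23 with 1 library left out. The libraries of the 2 groups did not overlap for 12 of the 30 members and for 36.5% of all genes.

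**Figure D3:**
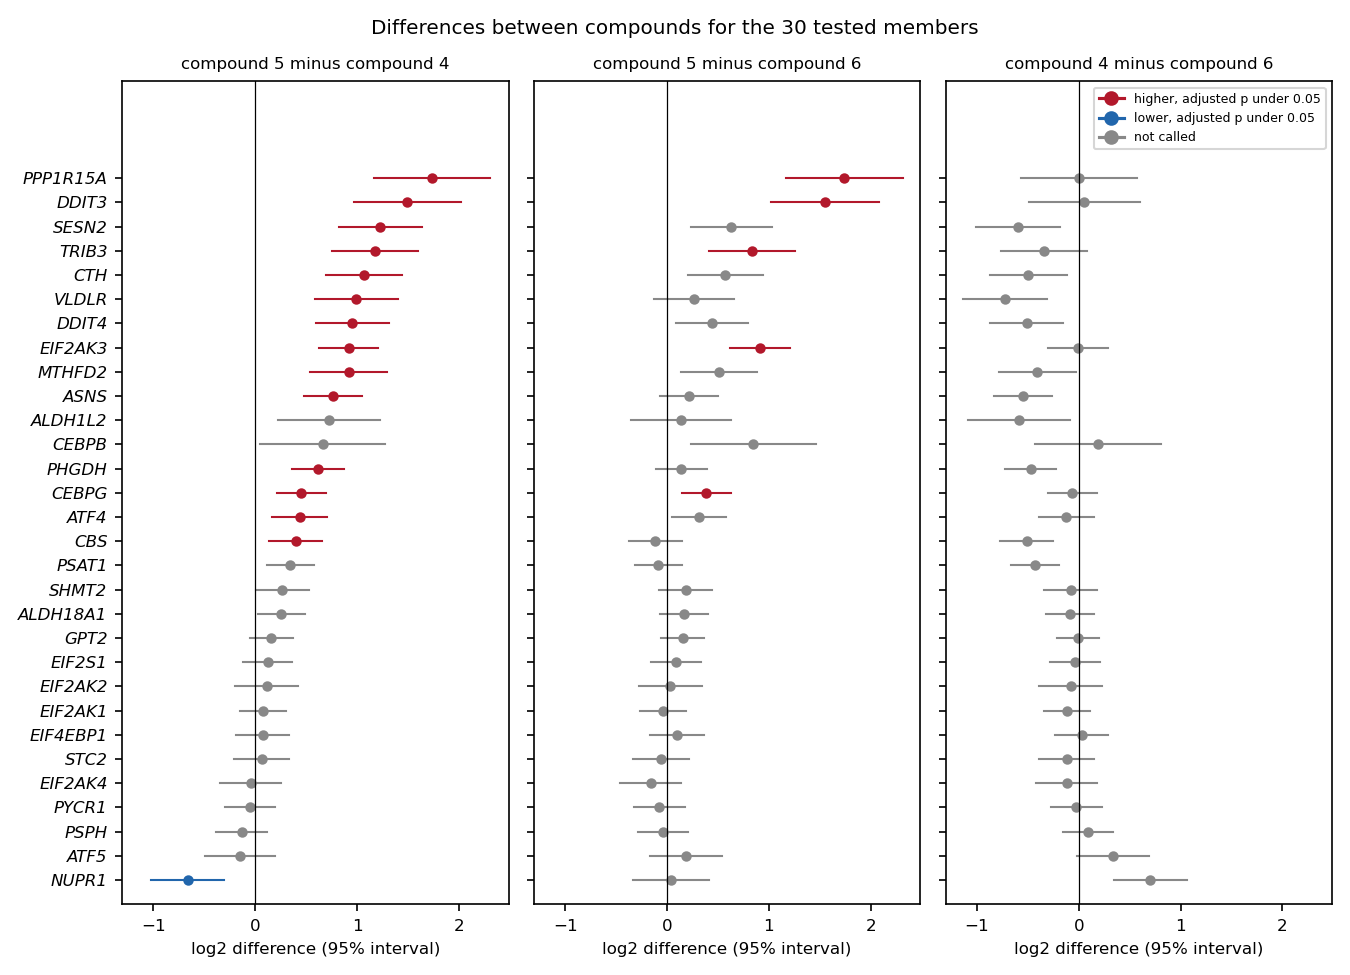
Log2 difference between compounds (x axis, same scale in the 3 panels) for the 30 tested members, with 95% intervals from edgeR, in red where called higher, blue where called lower and grey where not called. Members are ordered by the difference of compound 5 from compound 4, which has 14 red points and 1 blue point, NUPR1. The panel of compound 4 against compound 6 has grey points alone.

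Gene lists that stand next to the members in the pathway were described in the same fit. All 8 amino acid transporters were higher with compound 5, 7 with compound 6 (4 with the replicate block) and 5 with compound 4. For this and the next 2 lists, the shares of all genes called higher were 13.9% with compound 5, 2.8% with compound 6 and 6.5% with compound 4. Among them were SLC3A2, the heavy chain shared by several of these transporters (2.46 ± 0.18 with compound 5), SLC7A11, the cystine transporter (2.27 ± 0.24), and SLC6A9, a glycine transporter (1.27 ± 0.21). Of 12 cytosolic tRNA synthetases, which charge tRNA with amino acids, 11 were higher with compound 5, 7 with compound 6 and 6 with compound 4. GARS1 (1.21 ± 0.11), CARS1 (1.13 ± 0.13) and SARS1 (1.09 ± 0.13) had the largest changes with compound 5. Of 10 tested ATF4-responsive signalling and secreted genes (12 listed), 9 were higher with compound 5 and 3 with each of the other compounds. Without 1 library, 7 to 8 of the transporters were called with compound 5, 0 to 7 with compound 6 and 2 to 6 with compound 4. The tRNA synthetases called were then 8 to 11, 0 to 8 and 0 to 4, and the ATF4-responsive genes 7 to 8, 0 to 6 and 2 to 3, for compounds 5, 6 and 4. The ATF4-responsive genes include the stress hormone GDF15 (3.38 ± 0.29 with compound 5), ADM2 (2.13 ± 0.19), a peptide hormone, and JDP2 (2.04 ± 0.40), a repressor of the AP-1 family.

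Of 18 ER chaperones and genes driven by XBP1 or ATF6, the other branches of the ER stress response, 8 were higher with compound 5, where 13.9% of all genes were. With compound 4, 1 was higher and 1, DNAJB11, was lower (-0.47 ± 0.12, adjusted p = 0.0316), so that 2 of 18 were called where 11.9% of all genes were. The replicate block and DESeq2 each called 3 with compound 4. With compound 6 none was called, while an unadjusted p under 0.05 was reached by 7 of the 18 and DESeq2 called 2. With 1 library left out, between 6 and 8 were called with compound 5. The list's median was 0.21, -0.09 and -0.12 with compounds 5, 4 and 6. With compound 5, 13 of the 18 had a positive and 5 a negative log2 fold change, and 0 were called lower. XBP1 itself lay below DMSO with compound 5 (265.7 and 338.7 CPM, against 396.5 and 349.4). So did CALR, PDIA6, DNAJB11 and CRELD2. Compared directly, 10 of the 18 were higher with compound 5 than with compound 6, where 4.76% of all genes were. Against compound 4, 8 of the 18 were higher with compound 5 (7 called with the replicate block), where 6.91% of all genes were. These counts were 4 to 6 and 3 to 8 with 1 library left out. DNAJB9 (1.84 ± 0.14), an ER co-chaperone, ERN1 (1.68 ± 0.20), the ER stress sensor IRE1 alpha, and HERPUD1 (1.59 ± 0.12), a factor of ER-associated degradation, led the list with compound 5. HSPA5, the chief ER chaperone BiP and named after its value was seen, rose by 0.49 ± 0.10 with compound 5 (adjusted p = 0.00633) and was at -0.07 with compound 4 and -0.25 with compound 6.

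Among 13 eIF2 and eIF2B subunits and regulators, 3 were higher with compound 5, where 13.9% of all genes were higher and 28.1% were called in either direction, and none with the other compounds (with compounds 4 and 6, an unadjusted p under 0.05 was reached by 4 each, and DESeq2 called 1 and 2). These were PPP1R15B (0.80 ± 0.12), the constitutive partner of eIF2 alpha phosphatase, and the eIF2 subunits EIF2S2 (0.58 ± 0.10) and EIF2S3 (0.31 ± 0.09). Of 8 mitochondrial chaperones and proteases, 4 were higher with compound 5, where 13.9% of all genes were, but 0 to 2 without any 1 library, and none with compounds 4 and 6, where an unadjusted p under 0.05 was reached by 2 each and DESeq2 called 0. The highest were the chaperone HSPA9 (0.55 ± 0.12) and the proteases LONP1 (0.47 ± 0.14) and YME1L1 (0.41 ± 0.12). Whether these lists differ from other genes was not tested.

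**Figure D4:**
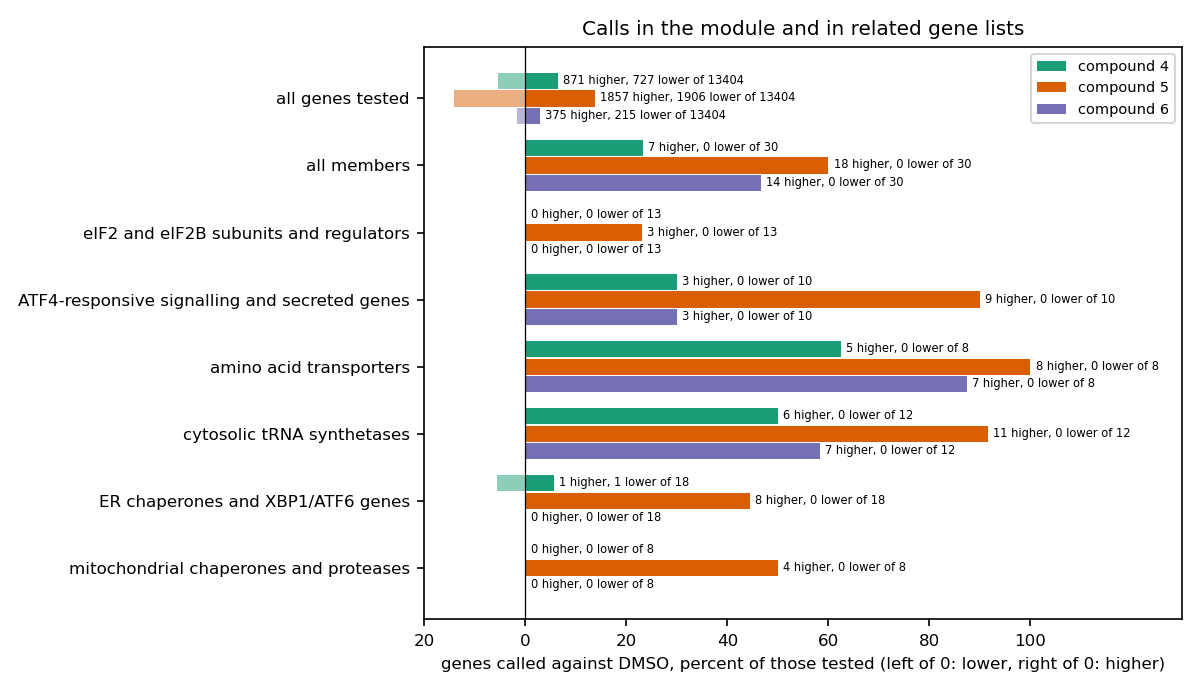
Percent of tested genes called against DMSO (x axis, higher to the right of 0, lower to the left in pale bars) for all genes, for the members and for 6 related lists (y axis), by compound, with the counts printed beside each bar. The amino acid transporters reach 8 of 8 with compound 5, and the ER list has 8 of 18 with compound 5 and 0 of 18 with compound 6.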

How the data were processed

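Strand-specific libraries of 8 samples of CYP3A4-overexpressing HepG2 cells were sequenced. The authors quantified the reads with Salmon 1.5.0 on GENCODE transcripts of GRCh38, summed them to genes, and deposited estimated counts as whole numbers without scaling (FastQC 0.12.0 and DESeq2 1.38.3 are also listed in their processing notes).

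For testing, edgeR 4.0.16 was run under R 4.3.3 (TMM, filterByExpr, quasi-likelihood F-test, 4 groups in 1 fit of all 8 samples). Benjamini-Hochberg adjusted p-values cover all 13404 genes tested, and intervals are 95%. Permutation tests were left out, since 2 against 2 samples cannot reach the cutoff. DESeq2 1.42.0, other scalings and filters, a replicate block and the omission of each library were alternatives. Same-numbered samples deviated together by correlations of -0.083 to 0.16. As the labels tie each number to a day, the blocked result is given where it changed a call of a member.

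Members, lists and tests were chosen with earlier results of these data known. Members called against DMSO are given in every sample, and from each other list the 3 with the largest called change. Gene positions and 31-base overlaps come from GENCODE 29, while the authors used a later release on the same build. Counts of compound 5 against DMSO were also simulated for 13404 genes. Log2 changes of 0.5, 1 and 2 were recovered in 30.1%, 79.7% and 95.2%, and 4.62% of the calls were false. Each simulation changed only 200 genes, whereas 3763 genes were called in the data. Whether the simulated spread between samples matched that of the data was not tested. These rates therefore describe the simulated counts and may be too favourable for the data. Intervals are those of the edgeR fit and include the spread between samples, while limits of detection cover counting error only.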

Additional observations from a re-analysis of the deposited data

How the results depend on the processing

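Of the 18 members called with compound 5 against DMSO, 17 were called under all 8 alternatives in tool, scaling, filter, block and samples, and the count stayed between 15 and 16 when 1 library was left out. With compound 4, 13 members were called without the filter on low counts (12 higher, 1 lower), 2 at a cutoff of 0.01, and 2 to 7 without 1 library. With compound 6, 2 members were called at a cutoff of 0.01 and 0 to 16 without 1 library. Between compounds 5 and 4 the count was 8 at a cutoff of 0.01 and 4 to 13 without 1 library. Between compounds 5 and 6 it was 9 in DESeq2, 11 without the filter, 8 in a fit to the 2 groups alone, 3 at a cutoff of 0.01, and 3 to 8 without 1 library. Between compounds 4 and 6 it was 3 in DESeq2, 9 without the filter and 0 to 1 without 1 library. The cause of these shifts was not tested. In a fit that leaves a group with 1 library, that library is assumed to vary like the other groups. With the replicate block, 10, 19 and 13 members were called with compounds 4, 5 and 6 against DMSO, and 14, 6 and 0 between compounds 5 and 4, 5 and 6, and 4 and 6. The block changed no other call of a member than those given with the results. Of the single values of members under an alternative, 2123 stayed on the same side of the threshold, whether called or not, 90 gained a call, 136 lost it and 0 called values changed sign. Over all genes, the counts called with compound 6 were 1441 without the filter and 92 at a cutoff of 0.01, against 590, those with compound 5 were 1809 and with compound 4 were 591 at that cutoff, and those between compounds 4 and 6 were 75 in DESeq2 and 294 without the filter, against 6. Those between compounds 5 and 4 were 2812 without the filter, 897 in a fit to the 2 groups alone and 279 at a cutoff of 0.01, and between compounds 5 and 6 they were 2117 without the filter and 282 at that cutoff. Upper-quartile and library-size scaling moved the median of all genes with compound 5 to -0.12 and -0.14 and the calls from 1857 higher and 1906 lower to 1449 and 2515, and to 1358 and 2718. The members' median was then 0.62 and 0.60, with 17 higher. Between compounds 5 and 4, the 926 higher and 943 lower became 615 and 1248, and 581 and 1273, under these scalings. In DESeq2 they were 1044 and 508. Between compounds 5 and 6, the 638 higher and 691 lower became 421 and 1044, and 417 and 1052, under these scalings. In DESeq2 they were 737 and 408.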
